A study of Xenopus laevis with 5 samples.

Results

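The genes of the BMP, TGF-beta and Nodal pathways were followed in epidermal explants of the frog Xenopus laevis. A member was any probe set whose platform annotation gave 1 gene symbol beginning with a name of the family (bmp, smad, tgfb before a digit or r, acvr, inhb, nodal, gdf, chrd, nog, fst, bambi, szl, tsku, twsg, cer1, lefty, smurf, ski, pnhd or id before a digit). This rule found 79 of 15491 probe sets, for 65 gene symbols, or 53 genes where the L and S homeologs of this allotetraploid frog are joined. No measured value entered the rule. One member, tgfb1i1.L, was caught by its name alone: its product is an adaptor of focal adhesions, not a ligand.

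The study set explants injected with either of 2 mRNAs against each other. Embryos received synthetic mRNA for ICD (3 samples) or for HMM (2 samples) at the 2-cell stage and grew in 0.1X MMR, a frog saline. Presumptive ectoderm was cut at stage 9 to 10, cultured on fibronectin in Danilchik's medium with 0.1% BSA, and harvested for total RNA when siblings would be at stage 22. The title places the study in Notch signalling. Neither ICD nor HMM is spelled out by the submitters. In this field the names commonly stand for the intracellular domain of Notch, an activator, and for a truncated Mastermind, a blocker. Injected mRNA reaches all cells that inherit it rather than 1 cell type, the number of explants per sample is not given, and no uninjected explants were analysed here. For no gene can it be told which group moved. Rose, fell, higher and lower below mean ICD relative to HMM. Nothing says whether samples of a group came from separate clutches, so the p-values measure the spread between these samples, which may be technical.

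Ligands of this superfamily bind pairs of type I and type II receptor kinases, and the receptors phosphorylate Smad proteins that enter the nucleus with smad4. BMP-type ligands act through smad1, smad5 and smad9, and TGF-beta, activin and Nodal through smad2 and smad3. Secreted proteins such as chordin and noggin hold ligands away from receptors, and inhibitory Smads, bambi and the smurf ubiquitin ligases dampen the signal inside or at the surface of the cell. In the frog ectoderm BMP signalling directs cells to epidermis, and its loss leads to neural tissue. The genes bambi, smad6, smad7, szl and the id genes are themselves switched on by BMP in the frog embryo.

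Values are MAS5 signals on a linear scale, and a level is compared only for the same probe set between arrays. A probe set was tested where 2 or more arrays gave it a signal over 42.6, the 40th percentile of all values. Differences are ICD minus HMM on the log2(signal + 5.9) scale, which understates the change of dim genes. Each adjusted p comes from limma over all 9981 tested probe sets, and called means an adjusted p under 0.05. Median signal per array was 62.1 to 72.7. ICD replicate 3 stood apart in the spike-in controls, with a median of 2.4 over the 27 poly-A control probe sets against 301.4 to 346.6 on the other arrays. The epidermal keratin gene krt12.4.L read 5966 to 7730 on all arrays. Its homeolog krt12.4.S read 4433 to 6520 in ICD, below the 7455 and 7171 of HMM, a difference of -0.49 that was not called (limma adjusted p = 0.22). Marker lists of other cell types moved with the groups. All 9 ionocyte probe sets and 8 of 9 multiciliated ones were called lower, with summed signals of 176 to 326 in ICD against 13634 to 24333 in HMM, and of 432 to 1474 against 5375 to 9938. All 5 tested basal epidermal probe sets and 2 of 4 cement gland ones were called higher. So were 4 of 13 neural plate, 1 of 7 goblet cell and 1 of 3 muscle and mesoderm probe sets. None of the neural crest, small secretory or keratinised epidermal ones was called. The 4 neural plate calls were of pax6.L and otx1.L alone, and the called pax6.L probe sets lay under the filter value in HMM. All ICD arrays were above both HMM arrays in 8 of the 13, which were probe sets of pax6.L, otx1.L, otx2.L and tubb2b.S alone. The groups overlapped for sox2.L, sox3.L, sox3.S, ncam1.S and otx2.S. Over all tested probe sets, 1.55% were called higher and 3.5% lower, and 20.4% had all ICD arrays above both HMM arrays. Summed neural plate signal was 2813 to 5394 in ICD and 1553 to 1572 in HMM, and that of the cement gland 18910 to 22964 against 9657 to 9949. Of the single probe sets in the neural plate sum, that of otx1.L weighed most on every array, at 1319 to 2210 in ICD and 605 and 373 in HMM. The tested sox2.L probe set read 40.7 to 171.5 in ICD and 46.3 and 88.4 in HMM. Of the mesoderm and endoderm markers, myod1, myf5, tbxt, sox17a, gata4 and hhex were too dim to test. The part of these cell types in the pathway differences was not tested, and in RNA of whole explants fewer cells of a type and less RNA per cell cannot be told apart.

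The share of tested pathway probe sets that was called, over both directions, was close to that of all tested probe sets. Of the 79 members, 45 passed the filter, and 2 of them were called, both higher in ICD: pnhd.L and smad6.L. None was called lower. The called share was 4.44% of the tested members against 5.05% of all tested probe sets, and in the higher direction alone 4.44% against 1.55%, and none against 3.5% in the lower. A count of 2 is near the background and is no result about the pathway. Without the filter, the same 2 of all 79 members were called, 2.53% against 2.98% of 15491. The median difference of the tested members was 0.05 and that of all tested probe sets 0.08. Of the 45, 32 differed by less than 0.5 on the log2 scale (71.1%, against 64.6% of all tested probe sets) and 6 by at least 1 (13.3% against 13.2%). An unadjusted p under 0.05 was reached by 8 members, 17.8%, where 19.6% of all tested probe sets reached it. The groups did not overlap for 12 members, a smaller share than over all tested probe sets (26.7% against 37.5%). All ICD arrays were above both HMM arrays in 7 (15.6%, against 20.4% of all) and below in 5 (11.1% against 17.0%). All 45 are shown in the plot of differences by role.

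**Figure D1:**
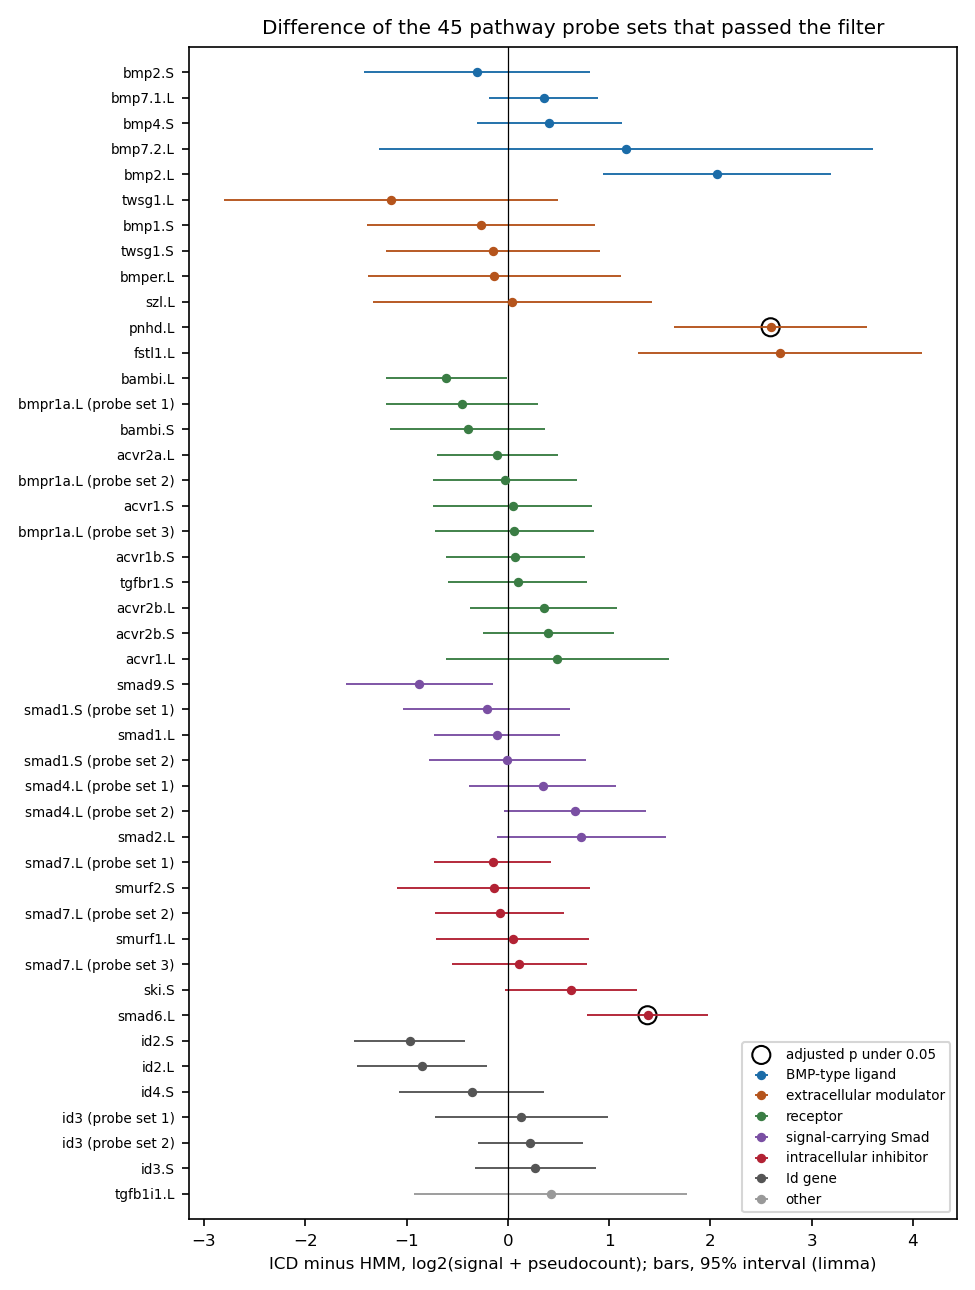
Difference between ICD and HMM (x axis, log2 of signal plus pseudocount) for each of the 45 tested pathway probe sets, grouped by role, with points for the estimate, bars for the limma 95% interval and rings for an adjusted p under 0.05. The 2 ringed probe sets, pnhd.L at 2.60 and smad6.L at 1.38, lie to the right, and most intervals cross 0.

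Among the intracellular inhibitors, smad6 rose. Smad6 is an inhibitory Smad that blocks BMP receptors and keeps smad1 from pairing with smad4. The signal of smad6.L was 522, 519.6 and 388 in ICD and 172.5 and 183 in HMM. Every ICD array was far above both HMM arrays, and the HMM arrays lay close together. The means were 476 ± 76.7 (SD, n = 3) and 178 ± 7.50 (SD, n = 2), a difference of 1.38 ± 0.26 (SE) or 2.60-fold (limma adjusted p = 0.0299). Leaving out single arrays gave differences from 1.31 to 1.52. The call was lost without ICD replicate 2 (limma adjusted p = 0.114), ICD replicate 3 (0.0617), HMM replicate 1 (0.101) or HMM replicate 2 (0.186).

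The other inhibitory Smad, smad7, which restrains both BMP and TGF-beta receptors, had 3 tested probe sets, all for smad7.L, and none was called. They differed by -0.15, -0.08 and 0.11. The brightest read 210, 256 and 266 in ICD and 305 and 217 in HMM, so that the groups overlapped. The upper bounds of the 95% intervals were 0.42, 0.56 and 0.78, all under the 1.38 estimated for smad6.L, while the difference between the 2 genes was not itself tested. The ubiquitin ligase genes smurf1.L and smurf2.S, whose products mark Smads and receptors for degradation, differed by 0.05 and -0.14 and stayed between 25.7 and 63.2 on all arrays. The co-repressor gene ski.S, whose product silences Smad complexes on DNA, read 85.9, 88.3 and 81.8 in ICD and 62.5 and 45.2 in HMM. Its groups did not overlap, yet the difference of 0.63 was not called (limma adjusted p = 0.274).

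Secreted modulators contained the largest differences of the pathway. Pinhead, encoded by pnhd, is a secreted cystine-knot protein that antagonises the BMP-type ligand Admp in the frog embryo. The bright probe set of pnhd.L read 211, 152 and 369.6 in ICD and 38.9 and 27.5 in HMM. All ICD arrays were above both HMM arrays, with a wide spread within ICD. Both HMM values lay under the filter value of 42.6, so the probe set entered the test through ICD alone and no exact fold is given. The difference was 2.60 ± 0.40 (SE, limma adjusted p = 0.022, and 0.0282 without the filter). With single arrays left out it stayed between 2.26 and 2.88, and it was not called without ICD replicate 2 (limma adjusted p = 0.0528) or without HMM replicate 2 (0.162). The second pnhd.L probe set stayed between 4.4 and 9.8 on all 5 arrays and was not tested.

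The follistatin-like gene fstl1 encodes a secreted glycoprotein that binds BMP4 in the mouse. Its probe set fstl1.L read 97.2, 398 and 355 in ICD and 25.8 and 40.4 in HMM. The groups did not overlap, and ICD replicate 1 was far below the other ICD arrays. Here too both HMM values lay under the filter value. The difference of 2.69 ± 0.60 (SE) was not called (limma adjusted p = 0.0514). It was called without ICD replicate 1 (3.32, limma adjusted p = 0.00203), after quantile normalization (0.0429), after median centring (0.0306) and with the filter at the 60th percentile (0.0474). It was not called without ICD replicate 2 or 3.

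None of the other tested members among the secreted modulators separated the groups. Twisted gastrulation, encoded by twsg1, binds BMPs together with chordin. For twsg1.L the arrays read 70.9, 324 and 68.3 in ICD and 406 and 177 in HMM, so that the groups overlapped and the difference of -1.15 ± 0.70 (SE) was not called. Its homeolog twsg1.S differed by -0.14. Sizzled, encoded by szl, protects chordin from tolloid proteases and is induced by BMP. The szl.L probe set read 49.1, 70 and 29.6 in ICD, inside the HMM values of 90.7 and 21.3. Its difference was 0.05 with a 95% interval from -1.33 to 1.42, too wide to tell a rise from a fall. For bmper.L, whose product binds BMPs outside the cell, and for bmp1.S, a tolloid protease that cuts chordin, the differences were -0.13 and -0.26. The bmp1.S probe set was of the type that can cross-hybridise.

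The classical organizer antagonists were dim. The filter left out 13 probe sets of secreted modulators, those of chrd.1.S, cer1.S, nog.L and fst.L among them. The chordin gene chrd.1.S stayed between 3.2 and 15.6 over both probe sets, and cer1.S, whose product binds Nodal and BMP, between 1.2 and 3.1. The noggin gene nog.L read 9.5, 26.3 and 32.8 in ICD and 3.2 and 7.1 in HMM. The follistatin gene fst.L read 11.2, 9 and 22.2 in ICD and 3.7 and 2.8 in HMM. For both genes every ICD value was above both HMM values, at a level where MAS5 signals carry a large relative error. Tested without the filter, neither was called (limma adjusted p = 0.205 for nog.L and 0.177 for fst.L). The szl.S probe set reached 85.9 on HMM replicate 1 and stayed between 8.3 and 32.3 on the other arrays.

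BMP-type ligands were represented by 7 probe sets, of which 5 were tested and none was called. The gene bmp2, a BMP that in the frog acts alongside bmp4, gave the largest difference. The bmp2.L probe set read 114, 70.7 and 35.3 in ICD and 10.2 and 12.6 in HMM. All ICD arrays were above both HMM arrays, which lay far under the filter value, so that the size of the difference depends on the pseudocount. The difference of 2.07 ± 0.48 (SE) was not called (limma adjusted p = 0.0587). It was called without ICD replicate 1 (1.70, limma adjusted p = 0.0344), but not without ICD replicate 2 or 3. Its homeolog bmp2.S read 62.6, 37 and 25.6 in ICD and 32 and 76.2 in HMM. These groups overlapped, with a difference of -0.30.

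The ventral and epidermal ligand gene bmp4.S read 171, 190.5 and 118 in ICD and 133 and 102 in HMM. Its difference of 0.41 was not called, and its 95% interval ran from -0.31 to 1.13. For bmp7.1.L, one of 2 bmp7 genes on the array, the signal was 1760 to 2446 in ICD and 1488 to 1908 in HMM, a difference of 0.36 with a 95% interval from -0.18 to 0.90. The other gene, bmp7.2.L, read 2809.6, 570.0 and 215 in ICD and 613 and 155 in HMM. Here the arrays of a group differed from each other more than the groups did, and the difference of 1.17 ± 1.03 (SE) was not called. The ligand genes gdf6.S and gdf7.S were too dim to test, between 2.8 and 5.5 and between 24.1 and 48.9.

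Ligands of the TGF-beta, activin and Nodal branch were dim throughout. None of the 12 probe sets, for 12 gene symbols, passed the filter. The 6 nodal genes, a family known for inducing mesoderm and endoderm in the early embryo, although nodal3 is known instead for neural induction, read from 0.5 to 23.8 over all arrays. The early ligand genes gdf1.S and gdf3.S, gdf1 being the maternal Vg1, stayed between 4.7 and 11.8 and between 1.3 and 2.4. The genes lefty.L and lefty.S, whose products inhibit Nodal, read 5.1 to 26.9. The activin subunit gene inhbb.L stayed between 21.9 and 43.6, with all ICD arrays below both HMM arrays. The tgfb1.L probe set reached 46.9 on ICD replicate 2 and was 5.2 to 23.9 elsewhere, and tgfb2.L stayed between 5.9 and 10.5. No change in these genes could be measured at this signal.

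Receptor genes, the pseudoreceptor bambi included, gave no call. All 12 tested probe sets, for 10 gene symbols, lay between -0.61 and 0.49 on the log2 scale. The BMP type I receptor gene bmpr1a.L had 3 probe sets, with differences of -0.45, -0.03 and 0.07. The brightest of them read 506, 377 and 332 in ICD and 502 and 329 in HMM, so that the 2 groups covered nearly the same range. Acvr1, a further type I receptor of BMPs, differed by 0.49 in acvr1.L and 0.05 in acvr1.S. For acvr1.L that difference came from ICD replicate 1, which read 252 where the other arrays read 79.9 to 109, and without it the difference was 0.03. The type II receptor genes acvr2a.L, acvr2b.L and acvr2b.S, which bind activin, Nodal and BMPs, differed by -0.10, 0.35 and 0.40. The type I genes of the other branch, acvr1b.S and tgfbr1.S, differed by 0.07 and 0.10. The type II genes bmpr2.S and tgfbr2l.L were too dim to test, although bmpr2.S reached 51.7 on ICD replicate 3.

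Bambi is a pseudoreceptor that lacks the kinase domain and blocks receptor pairing. Its probe set bambi.L read 359, 288 and 279 in ICD and 518 and 425 in HMM. The ICD arrays were all below the HMM arrays, with a difference of -0.61 that was not called (limma adjusted p = 0.246). The homeolog bambi.S differed by -0.40 and its groups overlapped.

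Signal-carrying Smad genes differed by less than 1 on the log2 scale, and none of the 7 tested probe sets was called. The BMP mediator gene smad9.S read 58.2, 86.6 and 79.9 in ICD and 116 and 170 in HMM, all ICD arrays below the HMM arrays, with a difference of -0.88 ± 0.31 (SE, limma adjusted p = 0.174). For smad1, a further BMP mediator, smad1.L differed by -0.11 and the 2 probe sets of smad1.S by -0.21 and -0.01, with 95% intervals from -1.03 to 0.62 and from -0.78 to 0.77 for smad1.S. The TGF-beta and Nodal mediator gene smad2.L read 87, 165 and 172 in ICD and 73 and 86.5 in HMM. Its lowest ICD array lay only just above the highest HMM array, and the difference of 0.73 was not called (limma adjusted p = 0.326). The 2 probe sets of smad4.L, the shared partner, differed by 0.66 and 0.34, the first without overlap between groups (182 to 275 in ICD, 115 and 164 in HMM) and the second with it. The smad3.L probe set was too dim to test at 11.5 to 15.5, as was a probe set annotated smad8c, which read 14.3 to 28.9.

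The id genes encode helix-loop-helix proteins that hold basic helix-loop-helix factors away from DNA, and they are textbook BMP targets. Both id2 homeologs were lower in ICD by similar amounts, although neither was called. For id2.S the signal was 642.5, 511 and 707 in ICD and 1213 and 1201 in HMM. All ICD arrays were well below both HMM arrays, which lay close together. The means were 620.1 ± 99.7 (SD, n = 3) and 1207 ± 8.63 (SD, n = 2), a difference of -0.97 ± 0.23 (SE, limma adjusted p = 0.0663). For id2.L the signal was 868, 1437 and 1379 in ICD and 1979 and 2351 in HMM, again without overlap, a difference of -0.84 ± 0.27 (SE, limma adjusted p = 0.14).

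The id3 probe sets lay on the other side of 0 within their error. Signals of id3.S were 1229, 1560 and 1196 in ICD and 897 and 1324 in HMM, a difference of 0.27 with a 95% interval from -0.32 to 0.87. The brighter of 2 probe sets annotated id3 without a homeolog read 1614, 1311 and 1157 in ICD and 1158 and 1150 in HMM, and differed by 0.22. The interval of id3.S excludes a fall as large as that estimated for either id2 homeolog, while the difference between the genes was not itself tested. For id4.S the signal was 156 to 246 in ICD and 235 to 310 in HMM, a difference of -0.36 that was not called. Among the members that BMP is known to induce, smad6.L was thus higher in ICD, and id2 and bambi lower without a call. The estimates of smad7, id3 and id4.S lay between these, and the interval of szl.L was too wide to place it.

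**Figure D2:**
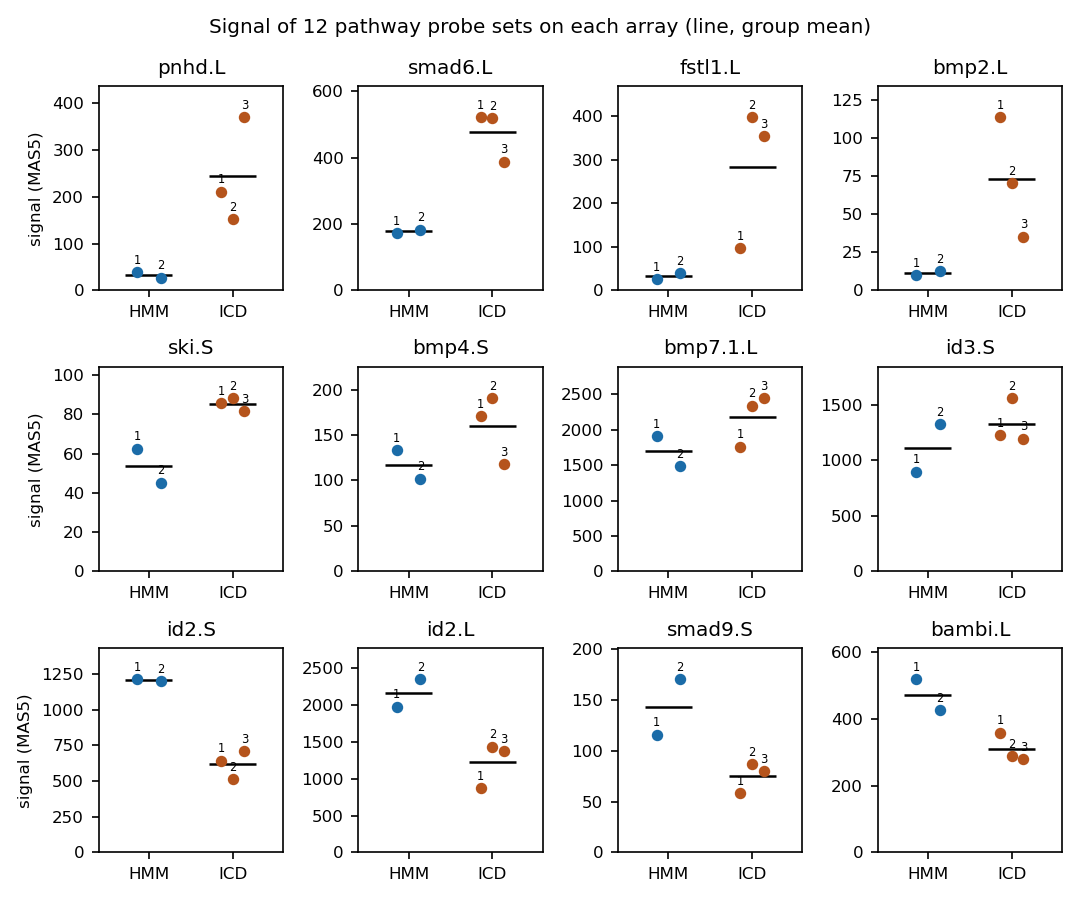
Signal on each array (y axis, linear MAS5 units from 0) of 12 pathway probe sets, with numbered points for the HMM (blue) and ICD (orange) replicates and lines for group means. The ICD points lie above all HMM points for pnhd.L, smad6.L, fstl1.L, bmp2.L and ski.S, below them for id2.S, id2.L, smad9.S and bambi.L, and among them for bmp4.S, bmp7.1.L and id3.S.

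Homeologs were set against each other for the 7 pathway genes with both copies tested, among 690 such genes on the array. Of all 690, 4 differed between homeologs at an adjusted p under 0.05 (0.58%), and none of the 7 was among them. An unadjusted p under 0.05 was found for 74 of the 690 (10.7%) and for 1 of the 7. The bmp2 homeologs stood farthest apart: the L copy differed between groups by 2.07 and the S copy by -0.30, a gap of 2.37 ± 0.41 (SE) with a 95% interval from 1.40 to 3.34. Its adjusted p over the 690 genes was 0.0766 in limma, and without single arrays the gap was 1.91 to 2.83. Both HMM values of bmp2.L lay far under the filter value. The pair thus entered through bmp2.L in ICD, and the size of the gap depends on the pseudocount. For twsg1 the gap was -1.01 ± 0.73 (SE). The gaps of the other 5 genes were 0.44 or less in size. For id2 the gap was 0.12 with a 95% interval from -0.62 to 0.86. The median size of the gap was 0.21 for the 7 genes and 0.28 for all 690.

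**Figure D3:**
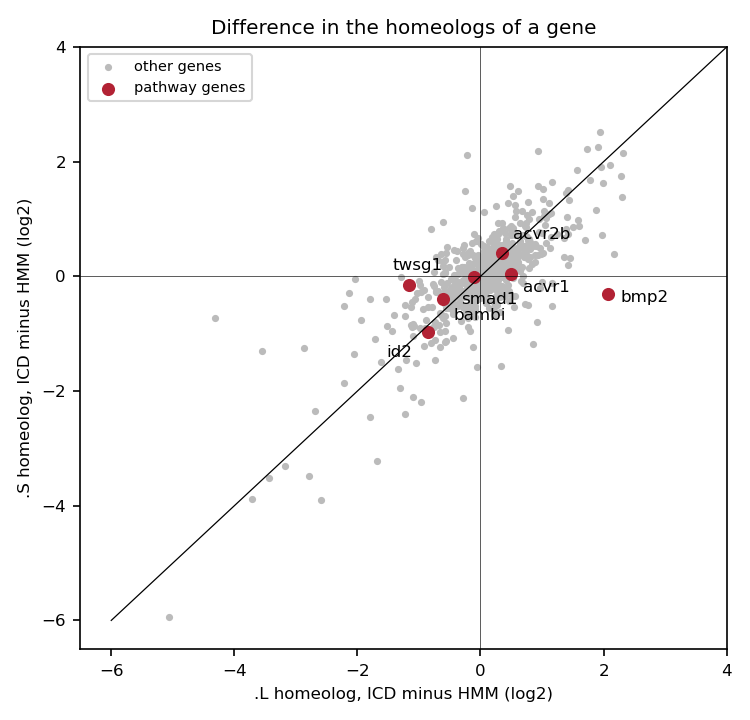
Difference between ICD and HMM (log2) in the S homeolog (y axis) against that in the L homeolog (x axis) for 690 genes with both copies tested, grey points for other genes, red for the 7 pathway genes, and the line for equal differences. The bmp2 point, at 2.07 and -0.30, lies far to the right of the line, and id2, bambi, acvr1, acvr2b and smad1 lie near it.

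Several pathway genes varied among arrays of the same group. Between ICD replicate 1 and the mean of ICD replicates 2 and 3, 6 of the 45 tested members differed by at least 1 on the log2 scale (13.3%), as did 1235 of all 9981. Those above in ICD replicate 1 were bmp7.2.L (by 2.98), acvr1.L (1.38) and bmp2.L (1.09), and those below were fstl1.L (-1.89), tgfb1i1.L (-1.77) and twsg1.L (-1.03). Between HMM replicates 1 and 2, 6 members differed by at least 1 (13.3% against 11.6%). These were bmp7.2.L (1.94), szl.L (1.83), twsg1.S (1.40), twsg1.L (1.17), bmper.L (1.03) and bmp2.S (-1.12). One member, bmp7.2.L, was in both sets in the same direction, 2.22% of the tested members against 5.01% of all tested probe sets. Its signal was highest on replicate 1 of each group. The focal adhesion gene tgfb1i1.L read 37.9 and 54.5 on replicate 1 of ICD and HMM and 85.2 to 152 on the other arrays.

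**Figure D4:**
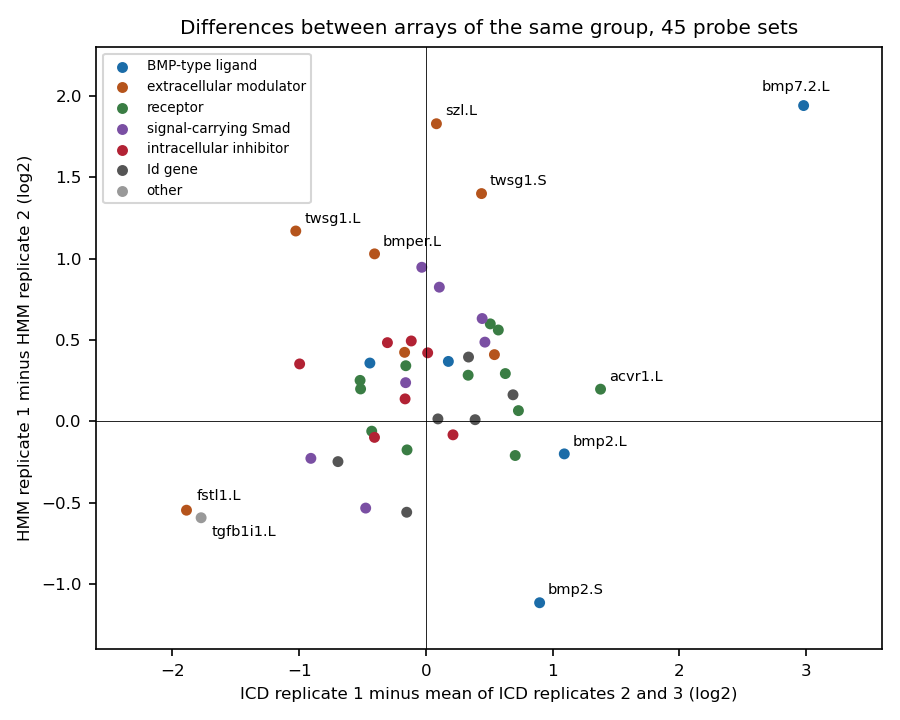
Differences between arrays of 1 group for the 45 tested pathway probe sets (log2): ICD replicate 1 minus the mean of ICD replicates 2 and 3 on the x axis, HMM replicate 1 minus HMM replicate 2 on the y axis, coloured by role. The gene bmp7.2.L lies at the upper right, at 2.98 and 1.94, and fstl1.L and tgfb1i1.L at the lower left.

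Other genes of the pathways were read from a list of 85 genes outside the naming rule, of which 48 had a probe set and 44 of 72 probe sets were tested. Of these 44, 2 were called higher and none lower, against 1.55% and 3.5% of all tested probe sets. Over both directions, 5.05% of all tested probe sets were called. A count of 2 of 44 is near that share and is no result about the list. The 2 called probe sets both belong to tgif2, a homeodomain co-repressor that binds Smad2 and Smad3 complexes. The tgif2.S probe set read 132, 270.5 and 413 in ICD and 44.9 and 32.5 in HMM, a difference of 2.51 ± 0.47 (SE, limma adjusted p = 0.0307). That of tgif2.L read 136, 210.1 and 324 in ICD and 59.3 and 42.4 in HMM, a difference of 1.95 ± 0.39 (SE, limma adjusted p = 0.0369). All ICD arrays were above both HMM arrays for each homeolog. HMM replicate 2 lay under the filter value for both probe sets, so neither would have passed on the HMM arrays alone. With single arrays left out the difference stayed between 2.14 and 2.95 for tgif2.S and between 1.64 and 2.25 for tgif2.L. Both calls were lost without ICD replicate 2 or 3 or either HMM array (limma adjusted p from 0.0729 to 0.244), and that of tgif2.L also without the filter (0.0503). The related gene tgif1.S read 111 to 139 in ICD and 52.6 and 58.3 in HMM, and its difference of 1.08 was not called (limma adjusted p = 0.0663).

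Outside the cell, the BMP co-receptor gene rgma.L, the chordin protease gene tll1.S and ltbp1.S, which encodes a binding protein of latent TGF-beta, differed by 1.24, 1.27 and 1.54. Every ICD array of these 3 was above both HMM arrays, and none was called (limma adjusted p = 0.113, 0.139 and 0.218). Both HMM values of ltbp1.S and that of ICD replicate 1 lay under the filter value. The probe set thus entered the test through ICD replicates 2 and 3 alone, and the size of its difference depends on the pseudocount. Without ICD replicate 1, ltbp1.S differed by 2.14 and was called (limma adjusted p = 0.00966). It was not called without ICD replicate 2 or 3. The 4 tested probe sets of furin.L, a protease that matures ligand precursors, differed by -0.63, -0.42, -0.13 and -0.08, and none was called. The probe set at -0.63 was of the type that can cross-hybridise. Among transducers, nedd4l.S, whose product degrades activated Smad2 and Smad3, differed by -1.38 (limma adjusted p = 0.112). Differences of 0.65, 0.45 and -0.51 were found for map3k7.L, which encodes the kinase TAK1, for the receptor phosphatase gene ctdnep1.S and for the ubiquitin ligase gene stub1.L, none of them called.

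Genes known to respond to these pathways lay on both sides of 0. Of 18 tested probe sets, 8 had differences above 0, the median was -0.12 and none was called. The ventral homeobox genes of the ventx family, induced by BMP, were mostly below HMM: ventx2.1.S, ventx2.1.L and the dimmer probe set of ventx1.1.L differed by -1.51, -1.05 and -0.87, each with all ICD arrays under both HMM arrays (limma adjusted p = 0.146, 0.161 and 0.148). The dimmer ventx1.1.L probe set read 30.2 to 36.1 in ICD, under the filter value, and entered the test through HMM alone. That of ventx2.1.L read 41.5, 54.2 and 36.8 in ICD, over the filter value only on ICD replicate 2. It would not have passed without the HMM arrays. The brighter ventx1.1.L probe set differed by 0.21. Without ICD replicate 1, which read 318 where ICD replicates 2 and 3 read 103 and 104, ventx2.1.S differed by -2.03 and was called (limma adjusted p = 0.00595). It was not called without ICD replicate 2 or 3, and its probe set was of the type that can cross-hybridise. The epidermal regulators gata3.S and tfap2a.L, which act downstream of BMP in the ectoderm, were higher in every ICD array, by 0.99 and 0.93, and were not called (limma adjusted p = 0.0846 and 0.119). Both were called without ICD replicate 1 (limma adjusted p = 0.0458 and 0.0322), but not without ICD replicate 2 or 3. Leaving out ICD replicate 1 also raised the calls over all tested probe sets, from 504 to 843. Other regulators on the list lay on both sides of 0. The gata2.L probe sets differed by -0.28 and -0.43, dlx3.S by -0.42, msx1.S by -0.57 and msx1.L by -0.09. Above 0 were dlx3.L at 0.46, dlx5.L at 0.51 and msx2.L at 0.37. The Nodal and mesoderm genes mix1, mixer, eomes, tbxt and vegt did not pass the filter.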

How the data were processed

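The authors deposited 1 linear signal intensity per probe set and array, made with MAS5 per the submitters' processing notes. No version or setting is given in the sources used here. MAS5 subtracts mismatch signal, so dim values carry large relative errors, and it scales arrays to a common mean. The 2% trimmed mean was 200.03 on every array. The 120 control probe sets were left out of 15611. A platform annotation table gave 1 symbol to 9304 probe sets. A further 9 with several symbols matched the naming rule and were not named. Gene IDs of 76 members were found in the RefSeq gene table of Xenopus_laevis_v10.1, and no coordinates, promoter or other sequences were used here.

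The fit used log2 of the signal plus 5.9 (the 10th percentile) in limma 3.58.1 in R 4.3.3 (lmFit, eBayes with trend, two-sided), over all 5 arrays without covariates, with Benjamini-Hochberg adjustment. Homeologs were compared by fitting the L minus S log2 difference per array over all pairs. The fits were tested on simulated data. Members named with each array's value were those called, the 24 with the smallest p and a fixed set of core genes; of the other pathway genes, those called and up to 4 with the smallest p in each group of the list. Some further genes, such as dim ones, were named after their values were seen. The members and lists were chosen with earlier results of these data known. Alternatives changed scaling, pseudocount, filter, eBayes form, a replicate block and each array left out. With 5 arrays, precision is limited by their number.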

Additional observations from a re-analysis of the deposited data

How the results depend on the processing

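The number of called probe sets was 11 to 843 with each array left out and 1714 with the replicate block. For the pathway members it was 0 to 4 and 9, for the other pathway genes 0 to 6 and 10, and for the homeolog pairs 0 to 2 and 14. Without HMM replicate 1 or 2 the lone HMM array is assumed to vary like the ICD arrays. Same-numbered arrays deviated together (0.651 for number 1, 0.508 for number 2). The deviations of the 2 HMM arrays from their mean are exact opposites, so these 2 values are not independent. ICD replicate 3, which has no same-numbered HMM array, also deviated together with HMM replicate 2, somewhat less closely. Thus 2 shared numbers and labels without a stated batch do not establish a pairing. The 9 members called under the block were pnhd.L, smad6.L, fstl1.L, bmp2.L, bmp7.2.L and 1 smad4.L probe set, all higher, and id2.S, id2.L and smad9.S, all lower. Of these, bmp7.2.L had a difference of 2.01 under the block (limma adjusted p = 0.000996). Replicate number 3 exists in ICD alone, so its term in the block takes up that array. The blocked differences thus rest on replicates 1 and 2 of each group. The 10 other pathway probe sets were tgif2.S, tgif2.L, tgif1.S, tll1.S, map3k7.L, gata3.S, tfap2a.L and msx2.L, higher, and nedd4l.S and krt12.4.S, lower. Without the filter, 1 other pathway probe set and 7 homeolog pairs were called. Homeolog pairs called numbered 1 with no pseudocount and 1 without trend. The members' median ran from -0.0156 to 0.228 with each array left out.

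Direction was followed for 54 probe sets, those chosen by a call, by the smallest p or by the fixed set. Of these, 40 kept their direction under every one of the 14 alternatives in which they were tested and 14 did not. None of the latter was called. Probe sets named outside the 54 were not counted, and some of them reversed too. With each array left out, bmper.L ran from -0.647 to 0.382 and bmp1.S from -0.536 to 0.188. With the filter at the 60th percentile only 40 of the 54 were tested, bmp2.L and ski.S not among them, and after quantile normalization 53, without smurf1.L. One bmpr1a.L probe set reversed to 0.0054 after median centring and to 0.102 with the block, smad1.S to 0.0272 after centring, and szl.L to -0.0074 with 4 times the pseudocount. With each array left out, the ranges were -0.196 to 0.295 for acvr1.S, -0.86 to 0.255 for bmp2.S, -0.327 to 0.271 and -0.215 to 0.346 for 2 bmpr1a.L probe sets, -0.0976 to 0.465 for id3, -0.0059 to 0.553 for id3.S, -0.226 to 0.011 for smad1.L, and -0.618 to 0.206 and -0.479 to 0.467 for smad1.S. They were -0.323 to 0.16 for smad7.L, -0.2001 to 0.293 for smurf1.L, -0.371 to 0.193 for smurf2.S, -0.868 to 0.96 for szl.L and -0.842 to 0.557 for twsg1.S. The cause was not tested. Low signal over background limits the 34 untested members.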
